A study of Bos taurus with 12 samples.

Results

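The genes for the oxytocin receptor (OXTR), the nuclear estrogen receptors (ESR1, estrogen receptor alpha, and ESR2, estrogen receptor beta), the progesterone receptor (PGR) and the progesterone receptor membrane component PGRMC1 were followed in bovine endometrium, the inner lining of the uterus. They were found by the gene name, transcript or description given for each probe, and 5 of the 6732 named genes on the array belong to the set. These 5 genes had 7 of the 15208 non-control probes, 3 of them for ESR1 and 1 for each other gene, and the brightest probe stood for its gene. Japanese-Black cows had been biopsied when their estrous cycle had reached day 15. There were 4 groups of 3 samples: the CL side in summer, the non-CL side in summer, the CL side in autumn and the non-CL side in autumn. The CL side is the uterine horn next to the ovary that carries the corpus luteum, the progesterone-secreting body, and the non-CL side is the opposite horn. Summer sampling was in early September and autumn sampling in mid-November, over 2 years, and no treatment, genotype or age is named in the labels. The labels do not say how many cows there were or whether replicates were separate cows, so a p-value here measures only the spread between these samples.

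With 1 Agilent array of a single colour for each sample, the precision is limited by 12 arrays. One array, the CL side's replicate 2 of summer and from here on the dim array, had a 75th percentile of signal of 2007, against 3516 to 4418 on the other 11 arrays. That array correlated with the others at a median r of 0.951, against 0.985 to 0.989 for the other arrays. All 6 summer arrays and both autumn replicate 1 arrays lay on slide 1, and the other 4 autumn arrays on slide 2. Of the epithelial markers on the array, 18 of 19 were kept as above background, as were 15 of 15 stromal markers and all 5 genes of uterine identity (HOXA10, WT1, MSX1, MSX2 and FOXL2). The dim array stood apart in these markers too. HOXA10 was at −0.13 there against 2.81 to 3.55 on the other 11 arrays, WT1 at −3.98 against −1.08 to 0.29, and FOXL2 at −2.38 against 0.36 to 1.45. MSX1 did not stand apart. It was at 3.04 there, within the 2.62 to 3.70 of the other arrays on which its spot carried no outlier flag. The mean log2 deviation of the uterine identity genes from their 12-array means was −1.42 on the dim array and −0.26 to 0.56 on the others. For the stromal markers it was −1.16 against −0.44 to 0.86, for the epithelial markers 1.14 against −0.39 to 0.22 and for the squamous epithelial markers 1.93 against −0.88 to 1.13. Many of the results below are therefore given with and without this array. Some, among them the fits with a replicate block, are given only with it. Its part in the results was not tested otherwise. In such bulk tissue, fewer cells of a type and less RNA per cell cannot be told apart.

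In ruminants the oxytocin receptor of the endometrium is the switch for luteolysis, the regression of the corpus luteum at the end of the cycle. Oxytocin binding to this G-protein-coupled receptor drives pulses of prostaglandin F2 alpha from the endometrium. Progesterone acting through PGR is held to keep the oxytocin receptor low during the luteal phase, and estrogen acting through ESR1 to favour its appearance. The question here is how OXTR varied with its regulators' transcripts, with side and with season.

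The measured sequences are those of the probes, each of 60 bases, shown because every level below is the signal of 1 of these oligonucleotides. They are the probe sequences of the scanner files, 5′ to 3′, and carry no genome position because no genome was used here. For ESR1, capitals mark the stretch of 44 bases over which the brightest and the dimmest probe overlap; 39 of these bases are identical and 5 differ.
OXTR, probe ABR924: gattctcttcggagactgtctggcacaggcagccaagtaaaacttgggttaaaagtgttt
PGR, probe ABR420: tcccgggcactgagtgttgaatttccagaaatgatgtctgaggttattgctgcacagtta
ESR2, probe ABR338: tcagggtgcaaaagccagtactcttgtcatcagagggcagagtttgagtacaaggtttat
ESR1 brightest, probe ABR1454: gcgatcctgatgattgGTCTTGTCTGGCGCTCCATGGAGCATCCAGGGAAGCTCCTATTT
ESR1 second, probe ABR950: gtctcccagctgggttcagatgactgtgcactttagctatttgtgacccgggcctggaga
ESR1 dimmest, probe ABR1886: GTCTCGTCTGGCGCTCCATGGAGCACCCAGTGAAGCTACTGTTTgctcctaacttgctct
The second ESR1 probe overlaps neither of the others, and all 3 ESR1 probes are described apart below.

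OXTR was the most variable of the 5 genes and was higher on the CL side than on the non-CL side in all 6 same-numbered pairs of horns. Levels are given as log2 of the processed signal relative to the array's 75th percentile, so that 0 is the 75th percentile of that array, and a level of 1 probe cannot be set against that of another. In summer OXTR was at −2.62, −0.60 and −3.74 on the CL side in replicates 1, 2 and 3, against −5.62, −3.24 and −4.76 on the non-CL side. In autumn it was at −2.63, −1.31 and −4.65 on the CL side, against −2.89, −2.78 and −5.69 on the non-CL side. The highest value came from the dim array and the lowest from non-CL-side autumn replicate 3, and the arrays of the 2 sides overlapped within each season. Between the highest and the lowest array the signal differed by 34.1-fold, and the SD over the 12 arrays (1.59) was larger than that of 99.2% of the kept probes. The spot was well above background on all 12 arrays, with processed signals of 82.4 to 1607, and no member's spot carried an outlier flag. 

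**Figure D1:**
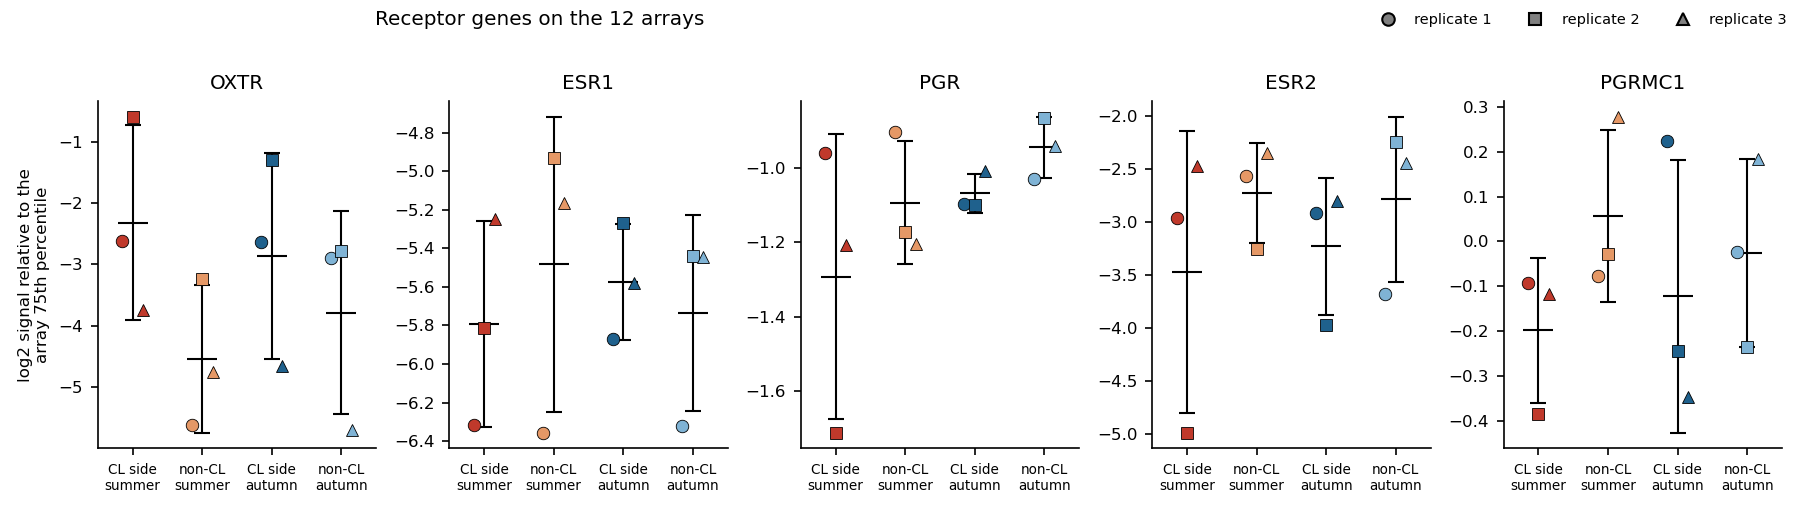
Level of each receptor gene on every array (y axis, log2 signal relative to the array 75th percentile; each panel has its own scale) in the 4 groups (x axis); points are arrays, with marker shape for the replicate number, and bars give mean ± SD (n = 3). OXTR spans −5.69 to −0.60, while PGR spans −1.71 to −0.86 and PGRMC1 −0.38 to 0.28.

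PGR, the nuclear receptor through which progesterone acts, was steady across arrays and well above background on all 12. In summer it was at −0.96, −1.71 and −1.21 on the CL side, against −0.90, −1.17 and −1.20 on the non-CL side. In autumn it was at −1.10, −1.10 and −1.01 on the CL side, against −1.03, −0.86 and −0.94 on the non-CL side. Its lowest value, −1.71, came from the dim array; the other 11 arrays lay between −1.21 and −0.86. Its whole range was 1.80-fold.

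ESR1, the receptor that carries most estrogen signalling in the uterus, gave weak signals of 35.7 to 119 on its brightest probe, all of them still well above background. In summer this probe was at −6.32, −5.81 and −5.25 on the CL side, against −6.35, −4.93 and −5.17 on the non-CL side. In autumn it was at −5.87, −5.27 and −5.58 on the CL side, against −6.32, −5.44 and −5.44 on the non-CL side. Replicate 1 was the lowest array in each of the 4 groups. The probe's mean over the arrays lay above that of only 12.7% of the kept probes, a rank of spot brightness and not of transcript level. The second ESR1 probe was dimmer, above background on 11 of 12 arrays with 4 arrays at the floor of −7.28 set for low signals. The dimmest probe, which overlaps the brightest, was above background on 2 of 12 arrays, with 8 at the floor, and was the 1 member probe removed by the filter. The first and second ESR1 probes correlated at r = 0.50 over the 12 arrays and rho = 0.49 (permutation p = 0.101 and 0.104, adjusted over 5 pairs 0.127 and 0.174), so that ESR1 levels depend on the probe chosen.

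ESR2, the second nuclear estrogen receptor, varied over a 6.72-fold range. In summer it was at −2.96, −4.99 and −2.47 on the CL side, against −2.57, −3.25 and −2.35 on the non-CL side. In autumn it was at −2.92, −3.97 and −2.80 on the CL side, against −3.68, −2.24 and −2.44 on the non-CL side. The lowest 2 arrays were both CL-side replicate 2, from summer and from autumn. PGRMC1, a heme-binding membrane protein linked to progesterone signalling, stayed within a 1.58-fold range. In summer PGRMC1 was at −0.09, −0.38 and −0.12 on the CL side, against −0.08, −0.03 and 0.28 on the non-CL side. In autumn it was at 0.22, −0.24 and −0.35 on the CL side, against −0.02, −0.24 and 0.18 on the non-CL side.

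For the comparison between sides, OXTR averaged −2.59 on the CL side and −4.16 on the non-CL side over both seasons. The difference of 1.57 ± 0.78 (SE) on the log2 scale, or 2.97-fold, had an unadjusted p of 0.0716 and an adjusted p of 0.999 in the limma fit over all 12375 probes tested. No probe of the array passed the adjusted threshold of 0.05 there (0 probes, 0%), and 205 (1.66%) had an unadjusted p under 0.05. In summer OXTR averaged −2.32 ± 1.59 on the CL side and −4.54 ± 1.20 on the non-CL side (SD, n = 3 each), a difference of 2.22 ± 1.11 (SE; limma adjusted p = 0.984). With all but the dim array, the summer difference was 1.36. With the replicate block it was 2.22 ± 0.41 (SE), with an unadjusted p of 0.00125 and an adjusted p of 0.809. In autumn it averaged −2.86 ± 1.68 on the CL side and −3.79 ± 1.65 on the non-CL side (SD, n = 3 each), a difference of 0.92 ± 1.11 (SE; limma adjusted p = 1). The 4 group means ran from CL side in summer through CL side in autumn and non-CL side in autumn to non-CL side in summer, and no neighbours in that order differed by more than the SD of either.

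The spread within each group was shared by horns of the same number, and within these pairs the side difference of OXTR had 1 direction. The CL side exceeded the non-CL side by 2.996, 2.64 and 1.02 log2 units in summer replicates 1, 2 and 3, and by 0.26, 1.47 and 1.04 in autumn. The mean paired difference was 1.57 ± 1.05 (SD, 6 pairs), and an exact two-sided sign-flip test over the pairs gave p = 0.0312, the smallest that 6 pairs can give. Over the 3 numbers, with both seasons averaged, the same exact test gave p = 0.25, again the smallest possible. Each pair lay on a single slide. All 6 pairs ran the same upward way in 1.17% of the 12272 probes measured on every array. With the number within season as a replicate block, the limma difference was 1.57 ± 0.29 (SE) with an unadjusted p of 0.00124 and an adjusted p of 0.88, which placed OXTR at rank 9 of 12381 probes by p. That fit gave 465 probes (3.76%) with an unadjusted p under 0.05, and none passed the adjusted threshold. On the 11 arrays other than the dim array, the difference of the unpaired fit was 1.14 ± 0.76 (SE), and OXTR was higher on the CL side in each of the 5 pairs that remain.

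**Figure D2:**
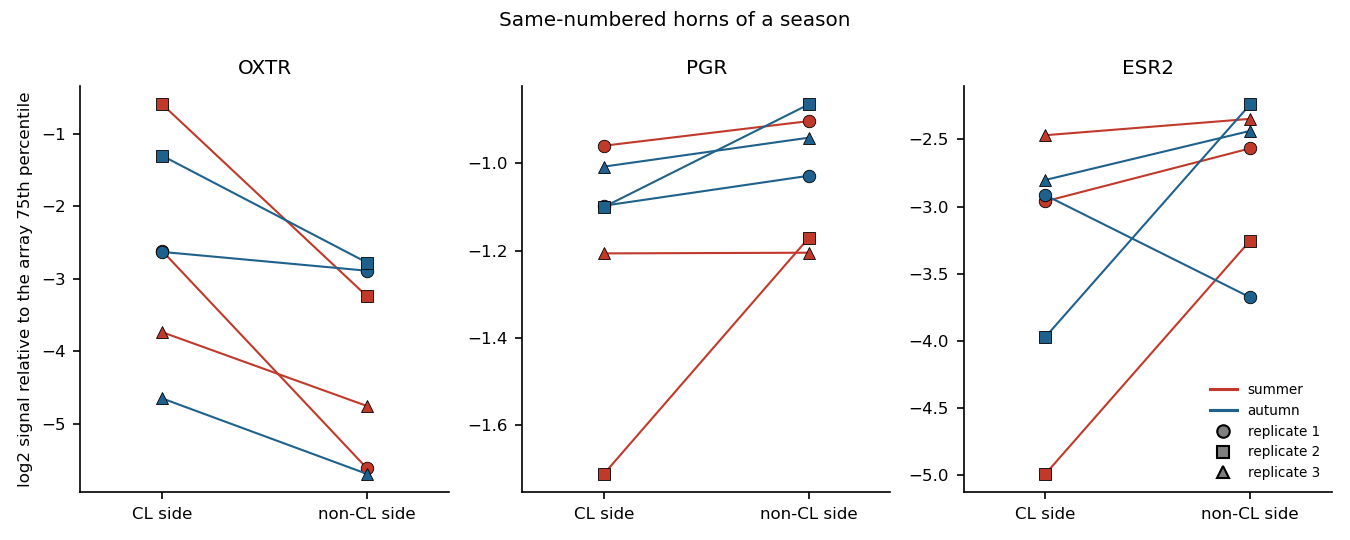
OXTR, PGR and ESR2 in the CL-side and non-CL-side horns with the same replicate number and season (y axis, log2 signal relative to the array 75th percentile); each line joins a pair, red for summer and blue for autumn. All 6 OXTR lines are higher on the CL side, by 0.26 to 2.996, and all 6 PGR lines are lower there, in summer replicate 3 by less than 0.01.

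The other receptor genes had smaller differences between sides. PGR was lower on the CL side in 6 of 6 pairs, where 2% of all probes had that pattern. Its mean paired difference was −0.16 ± 0.20 (SD; exact sign-flip p = 0.0312, and 0.25 over the 3 numbers, the smallest possible in each case), and that of the fit −0.16 ± 0.13 (SE; limma adjusted p = 0.999). With the dim array left out, the fitted PGR difference was −0.0566 ± 0.0951 (SE), and that of ESR2 −0.22 against −0.60. In the pair of the dim array PGR was lower by 0.54 and in the other 5 pairs by at most 0.23. ESR2 was lower on the CL side in 5 of 6 pairs, with a mean of −0.60 ± 0.97 (SD; exact sign-flip p = 0.25). ESR2 differed by −1.74 and −1.73 in the replicate 2 pairs of summer and autumn, and by 0.76 in autumn replicate 1. PGRMC1 was lower in 5 of 6 pairs, by −0.18 ± 0.30 on average (SD; exact p = 0.156). In summer its CL-side arrays lay below all its non-CL-side arrays, which held for 1.65% of all probes. ESR1 was higher on the CL side in 3 of 6 pairs, with a mean difference of −0.07 ± 0.45 (SD; exact p = 0.75). For ESR1 the 95% interval of the side difference over both seasons ran from −0.71 to 0.57, for PGR from −0.45 to 0.13 and for OXTR from −0.17 to 3.31. These sign-flip tests, an alternative chosen after seeing the data, were run on the 5 genes and are given unadjusted.

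For the comparison between seasons, none of the 5 genes passed the adjusted threshold. OXTR averaged −3.43 in summer and −3.33 in autumn over both sides, a difference of −0.10 ± 0.96 (SE; limma adjusted p = 0.991) on the 6 means of same-numbered horns. In that comparison 0 of 12391 probes (0%) passed the adjusted threshold and 498 (4.02%) had an unadjusted p under 0.05. The comparisons within a side or a season also gave 0 probes (0%) past the adjusted threshold. The share with an unadjusted p under 0.05 was 9.92% for season on the CL side, 1.12% for season on the non-CL side, 1.41% for side in summer, 1.86% for side in autumn and 1.88% for the contrast of seasons between sides. On the CL side OXTR was higher in summer by 0.54 ± 1.11, and on the non-CL side lower in summer by −0.75 ± 1.11 (SE). The contrast of these season differences between the sides was 1.30 ± 1.57 (SE; limma adjusted p = 0.999). Without the dim array the season difference of OXTR was −0.32 on the CL side and −0.54 over both sides, and the contrast 0.44. On slide 1 alone, where autumn has replicate 1 only, the season difference over both sides was −0.67 ± 1.03 (SE). PGR differed by −0.19 ± 0.16, ESR2 by −0.09 ± 0.45, and ESR1 and PGRMC1 differed by 0.02 ± 0.35 and 0.003 ± 0.15 (SE each). With all but the dim array, PGR differed by −0.0962 and ESR2 by 0.20. The 95% interval of the season difference was −2.40 to 2.19 for OXTR and −0.58 to 0.20 for PGR, and the interval for OXTR includes a season difference as large as the difference between sides.

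**Figure D3:**
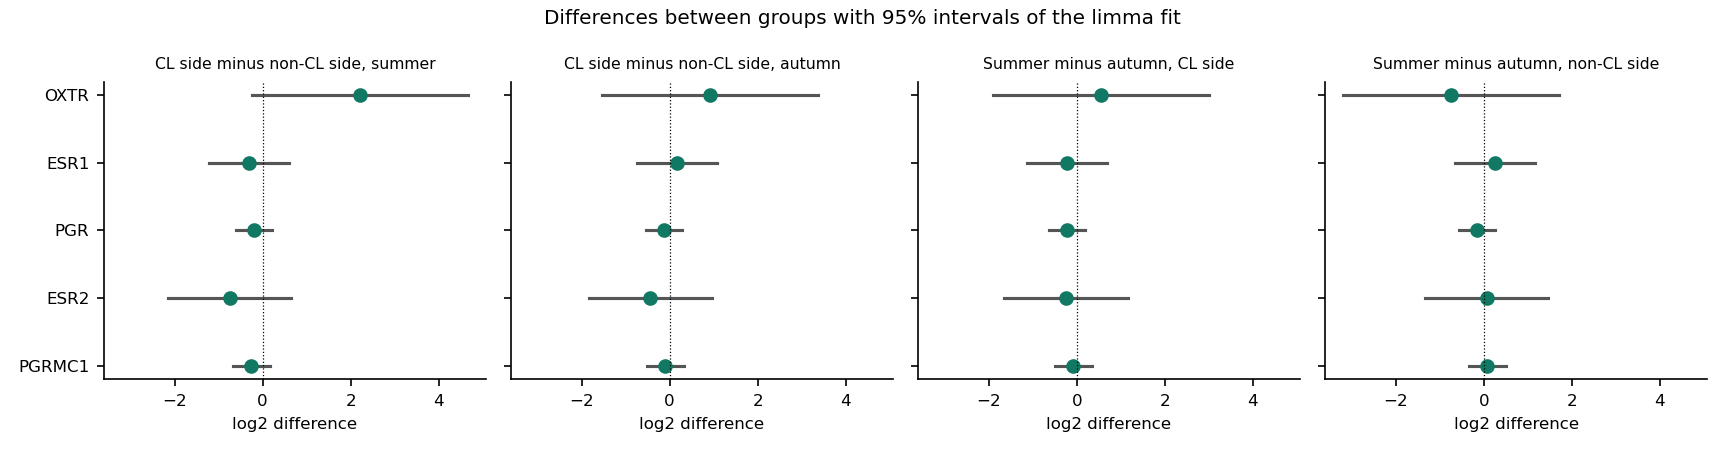
Fitted log2 differences (x axis) of the 5 receptor genes between sides within each season and between seasons within each side; dots are estimates and lines 95% intervals of the limma fit over 12 arrays. Every interval includes 0, and the OXTR estimate between sides in summer, at 2.22, is the farthest from 0.

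The replicate number accounted for more of the spread of OXTR and ESR1 than side or season did. The number has 3 levels and side and season 2 each, so its share tends to be larger even with no effect. Of the sum of squares of OXTR over the 12 arrays, the number took 53.7%, side 26.7%, season 0.116% and the rest 19.5%. For ESR1 the number took 74.5%, side 0.628% and season 0.0275%. Replicate 2 had the highest OXTR in all 4 groups, and replicate 1 the lowest ESR1 in all 4, patterns seen with the same number highest in 10.7% and lowest in 12.4% of all probes. OXTR averaged −3.44 ± 1.46 over the 4 arrays numbered 1, −1.98 ± 1.24 over those numbered 2 and −4.71 ± 0.80 over those numbered 3 (SD). ESR1 averaged −6.22 ± 0.23, −5.36 ± 0.37 and −5.36 ± 0.19 in the same order. For PGR the number took 16.8%, side 14.1% and season 18.8%.

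Over the 12 arrays OXTR did not follow ESR1 and ran against ESR2. OXTR and ESR1 correlated at r = −0.03 and rho = −0.11 (permutation p = 0.932 and 0.733, adjusted over the 10 pairs of genes 0.932 and 0.908). Within the summer arrays r was −0.02, within the autumn arrays −0.05, within the CL side −0.14 and within the non-CL side 0.13 (6 arrays each). Without the 2 arrays farthest from the median of OXTR, r was −0.28. With the second ESR1 probe the sign was turned, at r = 0.51 and rho = 0.39 (permutation p = 0.089 and 0.207), and at r = 0.34 without the dim array.

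OXTR and PGR correlated at r = −0.55 and rho = −0.31 (permutation p = 0.056 and 0.33, adjusted 0.188 and 0.55). Without the 2 arrays farthest from the median of OXTR, r was −0.44 and rho 0.03 (permutation p = 0.212 and 0.947). The 10 arrays that remain still hold the dim array. On the 11 arrays other than the dim array, which has the highest OXTR and the lowest PGR, r was −0.19 (rho −0.10; permutation p = 0.576 and 0.773). After the mean of each number was subtracted, an alternative chosen after seeing the data, r was −0.60 and rho −0.66 (permutation p = 0.0375 and 0.0224, adjusted p of r 0.0937). After the mean of each group was subtracted instead, r was −0.53 and rho −0.59 (permutation p = 0.0749 and 0.0502, adjusted 0.25 and 0.167). Within the summer arrays r was −0.75, within the autumn arrays, which do not hold the dim array, −0.47 (rho −0.66), within the CL side −0.63 and within the non-CL side −0.12, and on the 8 arrays of slide 1 it was −0.67. Slide 2 holds 4 arrays, too few for a value.

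OXTR and ESR2 correlated at r = −0.77 and rho = −0.67 (permutation p = 0.00219 and 0.0201, adjusted 0.0219 and 0.201). With no means subtracted, over the 12 arrays, it was the 1 pair of 10 with an adjusted p under 0.05, for Pearson's r and not for rho. Without the 2 arrays farthest from the median of OXTR, r was −0.80. When the dim array was left out, r was −0.65, with an adjusted p of 0.295. Within the summer arrays r was −0.88, within the autumn arrays −0.63, within the CL side −0.88 and within the non-CL side −0.49, and on slide 1 it was −0.84. Over the 6 means of same-numbered horns r was −0.82 (adjusted exact permutation p = 0.375), and after the mean of each number was subtracted it was −0.63 (adjusted permutation p = 0.087). The test over 12 arrays takes them as exchangeable although numbers pair them, and the call was lost in both of these settings. After the mean of each group was subtracted, which keeps that pairing, r was −0.73 and rho −0.60 (adjusted permutation p = 0.0346 and 0.167). All permutation tests after means were subtracted, those of OXTR and PGR among them, shuffled the 12 values freely. Subtracting means ties the values of a group or number together, so these p-values may be too small. OXTR and PGRMC1 correlated at r = −0.47 and rho = −0.47 (permutation p = 0.123 and 0.128, adjusted 0.247 and 0.421), and at r = −0.30 and rho = −0.31 without the dim array. PGR and ESR2 correlated at r = 0.72 and rho = 0.43 (permutation p = 0.0213 and 0.169, adjusted 0.106 and 0.421), with r = 0.22 without the dim array. After number means were subtracted, their r was 0.78 (adjusted permutation p = 0.0469, for rho 0.241), and after group means 0.72 (0.0346, for rho 0.167). ESR1 and PGRMC1 correlated at r = 0.07 over the 12 arrays and −0.01 after group means were subtracted. After number means were subtracted, r was 0.71 and rho 0.77 (adjusted permutation p = 0.0469 and 0.0493).

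**Figure D4:**
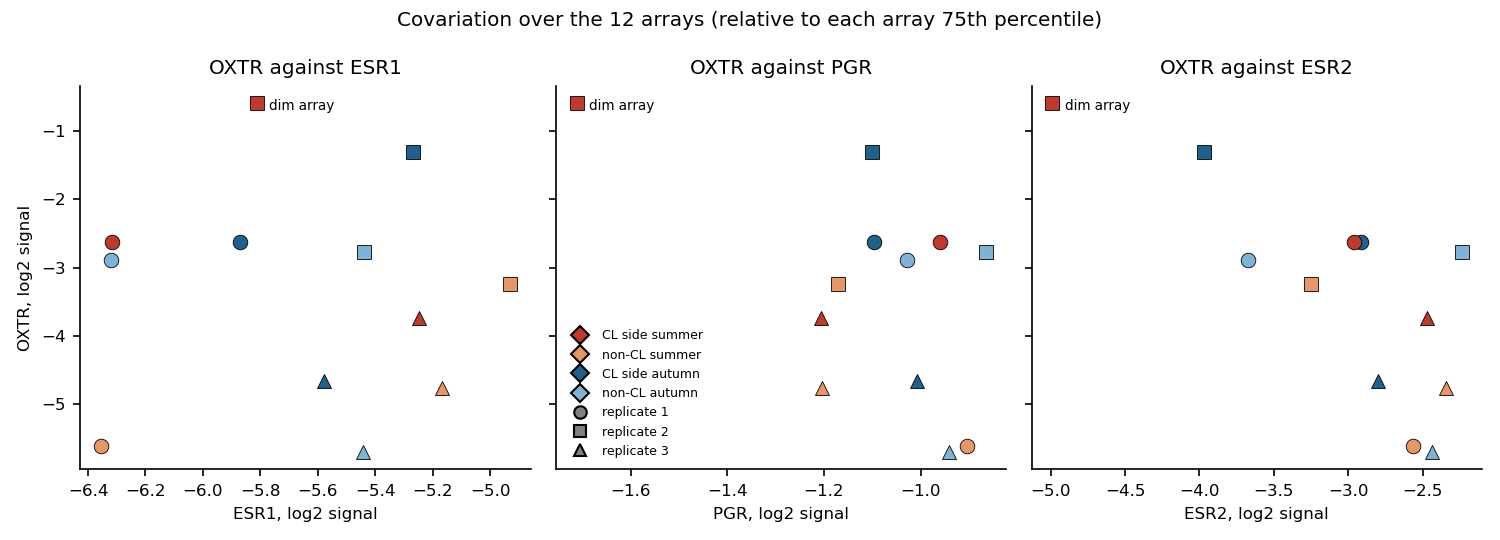
OXTR (y axis) against ESR1, PGR and ESR2 (x axes), all as log2 signal relative to the array 75th percentile; each point is 1 of 12 arrays, coloured by group and shaped by replicate number. The dim array holds the highest OXTR together with the lowest PGR and ESR2; r is −0.03 for ESR1, −0.55 for PGR and −0.77 for ESR2.

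Among the genes around the oxytocin receptor, from the hormone through the second messengers to the prostaglandins, 18 were tested besides OXTR. Between sides, over both seasons, 9 were higher and 9 lower on the CL side, with a median of −0.03 against −0.02 for all probes. There was 1 with an unadjusted p under 0.05, against 1.66% of all probes, and none passed the adjusted threshold. That gene was PTGES, the microsomal prostaglandin E synthase, which was higher on the CL side in 6 of 6 pairs. PTGES was at −2.37, 0.22 and −2.25 on the CL side in summer, against −3.44, −2.44 and −2.84 on the non-CL side. In autumn PTGES was at −2.50, −1.33 and −2.22 on the CL side, against −2.54, −3.48 and −2.68 on the non-CL side. As with OXTR, its highest array was the dim array and its next highest CL-side autumn replicate 2, and its difference was 1.16 ± 0.45 (SE; limma adjusted p = 0.999). Without the dim array it was 0.74 ± 0.27 (SE), and 2 of the 18 genes had an unadjusted p under 0.05, against 1.65% of all probes. HPGD, the enzyme that inactivates prostaglandins, differed by −2.35 ± 1.24 (SE), from 7 arrays on which its spot carried no outlier flag, and by −1.10 ± 0.38 without the dim array. On the non-CL side in autumn only replicate 3 was left for HPGD, and without the dim array only replicate 1 on the CL side in summer. The dim array held the lowest HPGD value, −1.81, against 3.01 to 4.80 on the others. PTGS2, the inducible cyclooxygenase that starts prostaglandin synthesis, differed by −0.48 ± 0.46 between sides and by 0.84 ± 0.38 between summer and autumn (SE). PTGER3 and PTGER4, receptors of prostaglandin E2, differed by −0.69 ± 0.30 and −0.38 ± 0.21 between summer and autumn (SE). PTGER3 was not above background on the dim array, at −6.45 against −4.50 to −3.13 on the others, and differed by −0.16 ± 0.24 without it. Between seasons 10 of these 18 genes were higher and 8 lower in summer, with none under an unadjusted p of 0.05 (4.02% of all probes). PTGS1, the constitutive cyclooxygenase, was above background on no array.

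**Figure D5:**
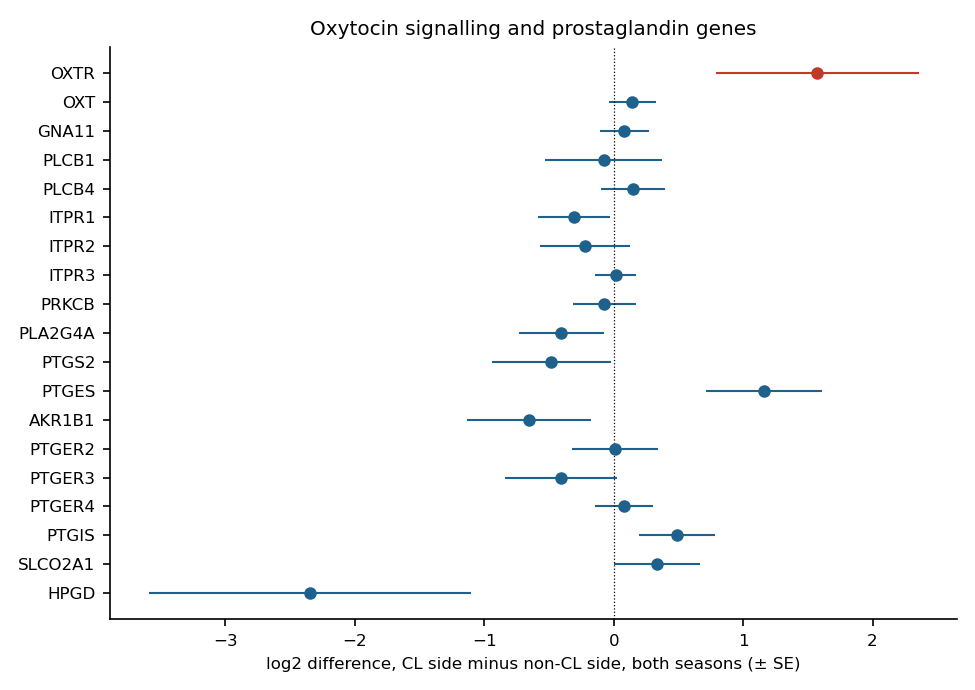
Difference of the CL side from the non-CL side over both seasons (x axis, log2, ± SE of the limma fit) for OXTR in red and the 18 tested genes of oxytocin signalling and prostaglandin metabolism in blue. OXTR, at 1.57, and PTGES, at 1.16, lie farthest to the right, and HPGD, at −2.35 and fitted on 7 arrays, farthest to the left.

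Of 10 other steroid-related receptors, 7 were higher and 2 lower on the CL side, with a median difference of 0.08 and no side estimate for NR2F1, and 4 were higher and 6 lower in summer. Of all probes, 43.9% were higher on the CL side and 52.7% in summer. None of the 10 had an unadjusted p under 0.05 in either comparison, against 1.66% of all probes between sides and 4.02% between seasons. NR2F2, an orphan receptor of the uterine stroma, differed by 0.20 ± 0.17 between sides and by −0.34 ± 0.20 between seasons (SE). RARA, a retinoic acid receptor, differed by 0.13 ± 0.13 between sides, and by 0.0484 ± 0.11 without the dim array. PGRMC2, the paralog of PGRMC1, differed by −0.22 ± 0.12 between seasons, and ESRRB, an estrogen-related orphan receptor, by 0.49 ± 0.33. Of 16 coregulators and partners of these receptors, 7 were higher and 9 lower on the CL side. Without the dim array 5 were higher and 11 lower, where 41.1% of all probes were higher. FOXA1, a pioneer factor that opens chromatin for ESR1, was above background on 5 arrays and kept only through the CL side in summer, where it was high. The dim array held its highest value, 0.79, against −7.28, the floor, to −4.20 on the others. EP300, a histone acetyltransferase, differed by −0.21 ± 0.12 between sides. CITED2, a transcriptional regulator that binds EP300, differed by 0.29 ± 0.12 between seasons, NCOA7 by 0.30 ± 0.16 and the chaperone HSPA8 by −0.24 ± 0.13 (SE each).

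Genes known to respond to estrogen were tested apart from the receptors themselves, 16 in number. On the CL side 11 were higher and 5 lower, with a median of 0.09 against −0.02 for all probes, of which 43.9% were higher there. Of the 16, 2 had an unadjusted p under 0.05, against 1.66% of all probes. PRLR, the prolactin receptor, counts among the higher ones but was kept only through the CL side in summer. With all but the dim array, 9 were higher and 7 lower, and 1 had an unadjusted p under 0.05, against 1.65% of all probes. SERPINA14, the uterine serpin secreted by the glands, differed by 1.77 ± 0.63 between sides (SE; limma unadjusted p = 0.0178, adjusted p = 0.999) and by −0.98 ± 0.34 between seasons. SERPINA14 was at −1.20, −0.67 and −1.16 on the CL side in summer, against −2.56, −0.79 and −1.25 on the non-CL side. In autumn SERPINA14 was at 2.79, 1.48 and −0.64 on the CL side, against −2.50, −2.80 and −0.10 on the non-CL side, so that the sides overlapped in both seasons. LTF, the gene for lactoferrin, differed by 2.34 ± 1.02 between sides (SE), with 7.73 on the dim array as its highest level, and by 1.59 ± 0.88 without that array. Between seasons 11 of the 16 genes were higher and 5 lower in summer, where 52.7% of all probes were higher. FOS differed by 2.20 ± 0.98 and MUC1 by 0.56 ± 0.31 (SE), and MUC1 by 0.28 ± 0.27 without the dim array, on which it was highest at 3.84.

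Of 33 genes known to respond to progesterone, 12 were higher and 21 lower on the CL side, with a median of −0.16 against −0.02 for all probes. None had an unadjusted p under 0.05, against 1.66% of all probes. On the 11 arrays other than the dim array, 15 were higher and 18 lower, with a median of −0.0283. Of the 33 genes, 1 then had an unadjusted p under 0.05, against 1.65% of all probes. SPP1, osteopontin, differed by 1.45 ± 0.78 and NPNT by −0.55 ± 0.27 between sides (SE). Between seasons 20 were higher and 13 lower in summer, and 4 had an unadjusted p under 0.05, against 4.02% of all probes. When the dim array was left out, there were 7, against 5.58%. IGFBP1, an insulin-like growth factor binding protein made by the luteal-phase endometrium, differed by 1.35 ± 0.45 and LGALS1 by −0.72 ± 0.25 (SE; limma adjusted p = 0.895 for both). HSD11B1, which regenerates active glucocorticoid, differed by 1.06 ± 0.37 (SE). Of 14 genes of steroid synthesis and metabolism, 6 were higher and 8 lower on the CL side, and 8 were higher and 6 lower in summer. Of all probes, 43.9% were higher on the CL side and 52.7% in summer. SHBG, which binds sex steroids, differed by 0.39 ± 0.16 and HSD17B4 by 0.34 ± 0.15 between seasons (SE), and HSD17B4 by 0.51 ± 0.10 without the dim array. AKR1C4 and HSD17B8 differed by −0.61 ± 0.51 and −0.16 ± 0.14 between sides, and AKR1C4 by −0.29 ± 0.48 without the dim array. CYP19A1, the aromatase that makes estrogen, was above background on no array. Among 22 interferon-stimulated genes, 20 were higher in summer with a median of 0.31 against 0.01 for all probes, and 9 had an unadjusted p under 0.05, against 4.02% of all probes, while between sides 13 were higher and 9 lower.

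Markers of other tissue layers were read beside OXTR. All 12 tested smooth muscle markers were higher on the CL side, where 43.9% of all probes were, with a median of 0.50. None had an unadjusted p under 0.05, against 1.66% of all probes. Without the dim array 10 of 12 were, where 41.1% of all probes were, with a median of 0.15. Of 13 on the array, CASQ2 was removed as dim. The smooth muscle score, the mean log2 difference of these genes from their 12-array means, ran from −0.44 to 1.46 on the CL side in summer and from −0.85 to 0.68 on the non-CL side. In autumn it ran from −0.61 to 1.41 on the CL side and from −0.95 to 0.79 on the non-CL side. OXTR correlated with the score at r = 0.64 and rho = 0.73 (permutation p = 0.0264 and 0.01, adjusted over 40 pairs of gene and marker list 0.296 and 0.402), and at r = 0.50 without the dim array. The score was higher on the CL side in 4 of 6 pairs. In both pairs where it was lower there, by −0.20 in summer replicate 3 and −1.22 in autumn replicate 2, OXTR was higher on the CL side, by 1.02 and 1.47. In summer replicates 1 and 2 the score was higher on the CL side by 0.82 and 0.78, and OXTR differed most there, by 2.996 and 2.64. In autumn replicate 3 the score was higher by 0.34 and OXTR by 1.04. In autumn replicate 1 the score differed most, by 2.20, and OXTR least, by 0.26. The part of smooth muscle in the OXTR difference was not tested.

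The other marker lists correlated less with OXTR. Over the 12 arrays r was 0.36 with the epithelial score, −0.33 with the ciliated epithelial score, −0.12 with the stromal score, 0.24 with the endothelial score, 0.26 with the leukocyte score, 0.50 with the squamous epithelial score and −0.40 with the uterine identity score (adjusted permutation p of 0.385 or more for each). With all but the dim array, the ciliated epithelial score gave r = −0.76 and rho = −0.82 (permutation p = 0.00747 and 0.00329, adjusted 0.299 and 0.132). Between sides 9 of 18 epithelial, 3 of 8 ciliated, 8 of 15 stromal, 4 of 13 endothelial, 16 of 19 leukocyte, 4 of 5 squamous and 1 of 5 uterine identity genes were higher on the CL side. On the 11 arrays other than the dim array, these counts were 3 of 18, 1 of 8, 15 of 15, 2 of 13, 13 of 19, 2 of 5 and 3 of 5 in the same order. Of all probes, 43.9% were higher there, and 41.1% without the dim array. The counts over both seasons hide differences between seasons. Within summer, the dim array included, they were 16 of 18, 6 of 8, 1 of 15, 3 of 13, 17 of 19, 5 of 5 and 1 of 5 (48.9% of all probes). Within autumn they were 4 of 18, 1 of 8, 15 of 15, 6 of 13, 9 of 19, 1 of 5 and 4 of 5 (42.7% of all probes). Between seasons 15 of 18 epithelial, 8 of 8 ciliated, 0 of 15 stromal, 9 of 12 smooth muscle, 11 of 13 endothelial, 17 of 19 leukocyte, 5 of 5 squamous and 0 of 5 uterine identity genes were higher in summer, as were 52.7% of all probes. When the dim array was left out, 1 of 15 stromal and 7 of 12 smooth muscle genes were higher in summer, and 53.6% of all probes. Of the 19 leukocyte genes, 3 had an unadjusted p under 0.05 between sides, against 1.66% of all probes, and none passed the adjusted threshold. The leukocyte genes S100A8 and S100A12, neutrophil calcium-binding proteins, differed by 1.36 ± 0.33 and 1.19 ± 0.35 between sides (SE). They were higher on the CL side in 4 and 5 of 6 pairs and highest on the dim array, at 0.42 and 2.36. In summer S100A8 ran from −1.13 to 0.42 on the CL side, against −2.68 to −2.19 on the non-CL side. In autumn it ran from −2.88 to −2.02, against −3.87 to −2.17. The part of these cell types in the receptor values was not tested.

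The genes most like each receptor over the 12 arrays are given as a description among 5272 genes measured on every array, which share libraries and scaling. SLC25A6, an ADP/ATP carrier of mitochondria, was most like OXTR at r = 0.92, ahead of ABTB2 at 0.90, ATP5F1A, a subunit of ATP synthase, at 0.89, FGFBP1, a binding protein of fibroblast growth factors, at 0.88 and ILK, the integrin-linked kinase, at 0.87. Without the dim array these values were 0.81 to 0.90. SLC25A6 and ATP5F1A varied little, with SDs of 0.31 and 0.11, while FGFBP1 spanned −6.83 to −2.54. Most opposed to OXTR were SEMA3G, a secreted semaphorin, at r = −0.93, C3H1orf52 at −0.90 and BBS4, a protein of the primary cilium, at −0.88. Most like ESR1 were RMND5A, MINK1, BOLA-DQA2, HOMER1 and LAS1L, at r = 0.90 or 0.91, and most opposed were STX8 at −0.92, OASL at −0.91 and PARL at −0.90. Most like PGR were HERC4, SPART, TRA2B, TBK1 and VAMP4, at 0.95 to 0.96, and among the most opposed were ENC1 at −0.95 and HNRNPH1 at −0.94. With all but the dim array, the 5 values most like PGR were 0.83 to 0.90, and those of ENC1 and HNRNPH1 were −0.84 and −0.77.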

How the data were processed

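Total RNA of 12 endometrium samples (400 ng each, per the labels' protocols) was labelled with Cy3 and hybridised to 1-colour Agilent arrays. The authors' deposited scanner files hold spot intensity on a linear scale; per the file headers, the processed signal came from a spatial and a multiplicative detrend in Feature Extraction 9.5.1.1 (9.5 in the submitters' processing notes) and not scaled between arrays. Their deposited series table gives log2 values of unstated scale and centring. Set against the scanner values, it ran the same way (r = 0.982 to 0.998), with its 75th percentile near 0, column medians of −2.79 to −2.61 and lowest values of −5.73 to −4.18; how it treated low signals stays unknown. It served as an alternative. Annotation columns of other kinds in the deposited files were used for names.

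The members and gene lists were chosen with earlier results of these data known. Of 15208 probes, 7070 had a symbol from the files or a reference gene table (ARS-UCD2.0, names only). Processed signals were scaled to each array's 75th percentile without control spots and taken to log2. Values under −7.28 were raised to it: on each array the weakest signal called well above background was found, and the largest of these 12 values was used. It held 2.06% of kept values. Outlier-flagged values (466) were set to missing, and 12404 probes remained, each called well above background throughout 1 group or more. limma 3.58.1 in R 4.3.3 fitted 4 group means, or for seasons over both sides 6 means of same-numbered horns, two-sided and adjusted by Benjamini-Hochberg over the probes tested. Correlations were tested by permutation with 100000 resamples over 10 to 12 arrays and exactly over 6 or 8, in scipy 1.17.1.

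Numbers pair the samples: deviations from group means correlated at 0.11 to 0.52 between every pair of same-numbered arrays in groups that share side or season, and at −0.42 to 0.08 between others. The labels do not say what a number marks. Named from each list were up to 3 genes with the smallest unadjusted p between seasons and 2 between sides. Named as most like a receptor were the 5 highest and 3 lowest correlations, of which 1 is not reported here. The fit and the tests were tested on simulated data. Alternatives, the gene lists without the dim array among them (chosen after seeing the data), covered background correction, normalization, the deposited values, probe filters, flags, the floor, single arrays left out, replicate and slide blocks and the other ESR1 probe.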

Additional observations from a re-analysis of the deposited data

How the results depend on the processing

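The 7 comparisons gave 0 probes past the adjusted threshold under the other settings, except 1 probe for season on the non-CL side with slide 1 alone. Leaving out single arrays gave 0 to 7 probes for season on the CL side, 0 to 6 for side in autumn, and 0 to 1 for side in summer, for side over both seasons and for the contrast between sides. The higher counts came without CL-side autumn replicate 3 (7 and 6), CL-side summer replicate 3 (4, and 1 for each of the last 3) or CL-side summer replicate 1 (2). The replicate block left the OXTR side difference at 1.57, moved its unadjusted p as given above and changed no other call; the block as a random effect gave an adjusted p of 0.866. OXTR between sides over both seasons ranged from 1.095 (without non-CL-side autumn replicate 3) to 2.02 (without CL-side autumn replicate 3) with single arrays left out and was 1.24 on slide 1 alone. Single arrays left out gave OXTR −0.35 to 1.32 for season on the CL side, −1.70 to −0.21 for season on the non-CL side, 1.36 to 2.93 for side in summer, −0.0284 to 1.82 for side in autumn, 0.40 to 2.25 for the contrast between sides and −0.60 to 0.40 for season over both sides. With the slide as a block, OXTR for season on the CL side was −0.0201. Season over both sides with single arrays left out was −0.13 to 0.16 for ESR1, −0.38 to 0.20 for ESR2 and −0.0849 to 0.0914 for PGRMC1, and the side difference of ESR1 was −0.29 to 0.0645. Across the other settings the season difference of ESR1 over both sides ran from −0.12 to 0.46, against 0.02 in the main fit. OXTR for side in autumn ran from 0.26 to 0.95 across them. Directions turned for ESR1 by season with quantile normalization (−0.12) and the deposited values (−0.0865), and for ESR1 by side with normexp (0.0706), the deposited values (0.31), slide 1 alone (0.0701) and the second probe (0.083). They turned for ESR2 by season with normexp (0.0387), the deposited values (0.022), and the slide block or slide 1 alone (0.20 each), and by side with slide 1 alone (0.00472). For PGRMC1 by season the slide block and slide 1 alone each gave −0.17. Correlations turned with normexp, the deposited values and the second probe: 0.30, 0.38 and 0.51 for OXTR and ESR1, −0.10, −0.13 and −0.41 for ESR1 and ESR2, and −0.10, −0.0373 and −0.57 for ESR1 and PGRMC1. ESR1 and PGR gave 0.10 with quantile normalization. With single arrays left out, r was −0.29 to 0.0619 for OXTR and ESR1, −0.63 to −0.19 for OXTR and PGR, and −0.86 to −0.65 for OXTR and ESR2, whose adjusted p passed 0.05 without CL-side summer replicate 2 (0.295), non-CL-side summer replicate 3 (0.052) or CL-side autumn replicate 2 (0.086). The same range was −0.10 to 0.15 for ESR1 and PGRMC1 and −0.31 to 0.38 for PGR and PGRMC1. The cause was not tested. The signals of ESR1 near background limit its values.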
